A study of Homo sapiens with 4 samples.

Results

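SOSTDC1, TWSG1 and 7 further genes of secreted or membrane-bound antagonists and modulators of bone morphogenetic protein (BMP) signaling were examined in MDA-MB-468 cells, human breast cancer cells that express the R273H mutant of p53 from their own gene. The 9 genes are SOSTDC1, SOST, TWSG1, NOG, CHRD, GREM1, FST, BAMBI and NBL1. The list was selected on the group difference of these same arrays, since SOSTDC1 and TWSG1 were known to differ, and the other 7 were added by function. The differences of the 9 genes are therefore given as a description, without a test. Of 18417 genes with a transcript cluster of their own, 8 are on the list. NBL1 has no cluster of its own and is given through a cluster that is also annotated to the readthrough gene MICOS10-NBL1.

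Each of 4 RNA samples was profiled on its own Affymetrix array (Human Gene 1.0 ST). All cells carried a lentiviral shRNA. On 2 arrays it was a non-targeting shRNA (NS) and on 2 it was p53si-1, which is directed against the endogenous p53-R273H transcript. The comparison of the 2 groups asks which transcripts differ once the mutant p53 is depleted. Only 1 p53 shRNA sequence was profiled, in 1 cell line, and the level of the p53 transcript is not analysed here. The study's methods and results name different times after transduction, and the sample labels name none. The label gives a breast cancer cell line, and markers of breast epithelium and of other cell types were read. All 7 breast epithelial markers examined (EPCAM, CDH1, EGFR and keratins) had a mean log2 signal of at least 9.46, above the upper quartile of all genes at 8.24, while the leukocyte marker PTPRC was at 3.09 with NS and 3.08 with p53si-1 and the endothelial marker PECAM1 was at 4.32 and 4.29. Of 15 measured markers of leukocytes, fibroblasts and endothelium, CD14 at 9.78 and KDR at 8.79 were the ones above that quartile. Of 6 fibroblast markers, 5 lay below the median of all genes, 6.59. COL1A1 lay above it, with means of 7.28 with NS and 7.13 with p53si-1. The mean of the 5 endothelial markers lay between 5.21 and 5.36 on the NS arrays and between 5.31 and 5.33 on the p53si-1 arrays. KDR alone of them had a higher mean with p53si-1, at 8.91 and 9.18 against 8.36 and 8.73 with NS, a log2 difference of 0.50 without overlap (standard error 0.15, adjusted p = 0.28 from limma). Its part in the results below was not tested.

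BMPs are secreted dimers of the TGF-β superfamily that bind pairs of type I and type II serine/threonine kinase receptors, whose signal is carried by SMAD proteins to target genes such as the ID family. Antagonists act mostly outside the cell, by binding the ligand and keeping it from the receptors. NOG (noggin) and CHRD (chordin) bind BMPs directly, TWSG1 (twisted gastrulation) binds both BMPs and chordin, GREM1 (gremlin), NBL1, SOST (sclerostin) and SOSTDC1 (also called ectodin, USAG-1 or wise) are cystine-knot proteins, and FST (follistatin) binds activins most tightly. BAMBI is a membrane pseudoreceptor without a kinase domain. SOST and SOSTDC1 also bind the LRP co-receptors of WNT signaling.

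The designed sequences that define the perturbation and the study's own SOSTDC1 assay are given first. They are written 5′ to 3′ in lower case. The p53si-1 sequence is the stretch of the p53 transcript that the shRNA targets, and the primers are those the study used to measure SOSTDC1 by RT-PCR.
p53si-1 target: caccatccactacaactacat
SOSTDC1 forward primer: cactcgggttcaagtgggtt
SOSTDC1 reverse primer: ggctcttttccgctctctgt

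SOSTDC1 was the only one of the 8 genes to be higher by over 1.5-fold with p53si-1, and TWSG1 was the only one to be lower by over 1.5-fold. Over all 18417 genes, 0.271% were higher and 0.652% were lower by that criterion. These are the differences for which both genes are on the list, so nothing is read from the counts.

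SOSTDC1 (transcript cluster 8138363) had log2 signals of 10.34 and 10.07 with NS, against 11.10 and 10.96 with p53si-1. Both p53si-1 arrays lay above both NS arrays. The NS mean was 10.20 ± 0.20 and the p53si-1 mean 11.03 ± 0.10 (SD, n = 2 per group), a log2 difference of 0.82 with a standard error of 0.12, or 1.77-fold. Among the 4 pairs of 1 p53si-1 and 1 NS array, the difference ran from 0.61 to 1.03. The 2 NS arrays were 0.28 apart and the 2 p53si-1 arrays 0.14 apart, less than the smallest of these pairs. By size of increase SOSTDC1 ranked 12 of 18417. The arrays measure RNA from the whole culture, so a change in the share of cells that express a gene and a change in RNA per cell cannot be told apart.

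TWSG1 (transcript cluster 8020090), the extracellular protein that bridges BMPs and chordin, differed in the opposite direction. Its log2 signals were 10.19 and 10.31 with NS, against 9.34 and 9.40 with p53si-1. Both p53si-1 arrays lay below both NS arrays, without overlap. The means were 10.25 ± 0.09 and 9.37 ± 0.05 (SD, n = 2 per group), a log2 difference of -0.88 with a standard error of 0.09, or 1.84-fold. The 4 pairs of arrays ran from -0.98 to -0.78, while replicates were 0.13 apart with NS and 0.07 apart with p53si-1. By size of decrease TWSG1 ranked 22 of 18417.

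**Figure D1:**
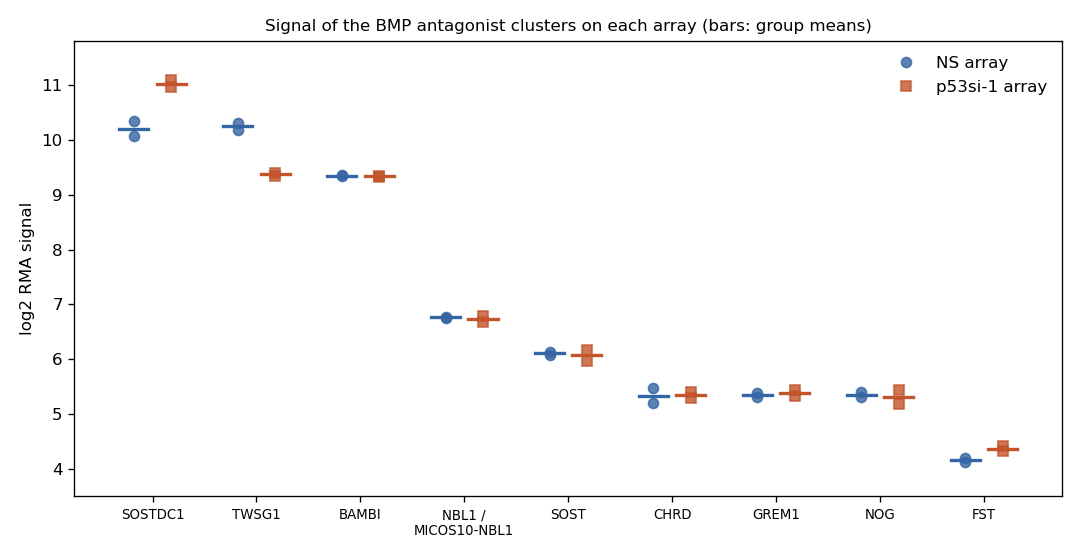
Log2 RMA signal (y axis) of the transcript cluster of each gene on each of the 4 arrays, with NS arrays as circles, p53si-1 arrays as squares and group means as bars. The SOSTDC1 mean is 10.20 with NS and 11.03 with p53si-1, the TWSG1 mean 10.25 and 9.37, and the other clusters differ by at most 0.20 in their means (heights are not comparable between genes because probes differ).

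The ligand-binding antagonists that define the class, noggin and chordin, had group means that nearly coincided. NOG was at 5.31 and 5.40 with NS and at 5.44 and 5.18 with p53si-1. The p53si-1 arrays lay on either side of the NS arrays, and the difference of means was -0.04 (95% interval -0.31 to 0.23). CHRD was at 5.20 and 5.47 with NS and at 5.29 and 5.40 with p53si-1. Here the NS arrays enclosed the p53si-1 arrays, with a difference of 0.01 (95% interval -0.27 to 0.29). The 2 NS arrays themselves were 0.27 apart for CHRD, more than any pair of 1 p53si-1 and 1 NS array.

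Among the cystine-knot relatives of SOSTDC1, the group means lay close together. SOST, the gene most closely related to SOSTDC1 and the osteocyte inhibitor of bone formation, had log2 signals of 6.08 and 6.14 with NS and 6.18 and 5.97 with p53si-1. The groups overlapped and the means differed by -0.04 (95% interval -0.28 to 0.20). GREM1 was at 5.30 and 5.38 with NS and at 5.45 and 5.32 with p53si-1, also overlapping, with a difference of 0.04 (95% interval -0.18 to 0.26). The cluster shared by NBL1 and MICOS10-NBL1 was at 6.77 and 6.75 with NS and at 6.68 and 6.79 with p53si-1. The means of this shared cluster were -0.03 apart, and its signal cannot be assigned to NBL1 alone.

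FST and BAMBI act at other points, on activins and at the receptor. FST was at 4.14 and 4.20 with NS and at 4.41 and 4.32 with p53si-1. Both p53si-1 arrays lay above both NS arrays, by a mean of 0.20 with a standard error of 0.09 (95% interval -0.01 to 0.40), which is 1.15-fold. BAMBI was at 9.33 and 9.35 with NS and again at 9.33 and 9.35 with p53si-1. Its difference of -0.0023 was the smallest on the list, with a 95% interval of -0.20 to 0.19.

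In all, the arrays of the groups did not overlap for 3 of the 8 genes, SOSTDC1, FST and TWSG1, where 42.5% of all 18417 genes did not overlap. The median difference was 0.0049 over the 8 genes and -0.0089 over all genes. SOST, NOG, CHRD and GREM1 had mean signals below the median of all genes, 6.59, and FST lay below their lower quartile, 4.72. RMA compresses differences of dim clusters, so the intervals of these 5 genes describe the signal and may understate a change in RNA.

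**Figure D2:**
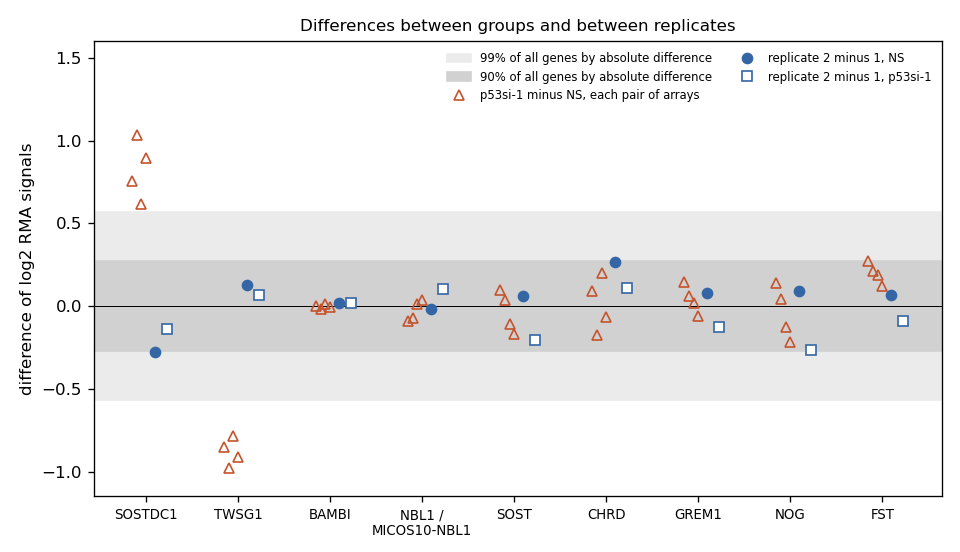
Differences of log2 RMA signals (y axis) for each gene: triangles are the 4 pairs of 1 p53si-1 minus 1 NS array, circles and squares are replicate 2 minus replicate 1 within NS and within p53si-1. Grey bands hold 90% and 99% of all genes by absolute difference of group means (up to 0.27 and 0.57), and only SOSTDC1 (0.61 to 1.03) and TWSG1 (-0.98 to -0.78) have every triangle outside them. The bands refer to group means and the triangles to pairs of single arrays. SOSTDC1 and TWSG1 are on the list for this difference, so nothing is read from their place outside the bands.

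Promoter windows from RefSeq (GRCh38.p14, 250 bases before to 50 after a start site) were held for 7 of the 9 genes, in 12 windows, and for neither SOSTDC1 nor NOG. The TWSG1 window, chr18:9334523-9334822 on the plus strand, is shown because TWSG1 is the gene of the list with the largest difference that has one. Capitals mark GC boxes (GGGCGG on either strand), the element that SP-family factors bind.
TWSG1 promoter: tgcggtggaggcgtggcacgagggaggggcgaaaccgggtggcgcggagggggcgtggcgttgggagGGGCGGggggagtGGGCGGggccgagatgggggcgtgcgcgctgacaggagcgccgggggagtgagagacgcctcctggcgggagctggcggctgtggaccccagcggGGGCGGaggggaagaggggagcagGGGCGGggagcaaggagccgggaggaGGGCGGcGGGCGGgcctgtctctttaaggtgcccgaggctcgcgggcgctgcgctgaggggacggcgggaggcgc

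The window is 77.7% G and C and holds 6 GC boxes, which begin 183, 170, 75, 51, 25 and 18 bases upstream of the start site and do not overlap. At least 1 GC box was found in 6 of the 12 windows and in 45.0% of 35116 promoter windows of the same length. GC boxes were also present for CHRD, GREM1, FST, BAMBI and NBL1 (read from its shared cluster), whose signals did not differ by over 1.5-fold, and absent for SOST. GREM1 had 2 windows and NBL1 had 5, and not every window of either gene held a GC box. Some NBL1 windows overlap, so the 12 windows are not independent promoters. The TATA box TATAAA, present in 11.5% of all windows, the consensus p53 half-site, present in 6.63%, and the TCF/LEF core CTTTGA, present in 12.9%, matched none of the 12 windows on either strand. The palindromic SMAD element GGCGCC matched 4 of them, against 19.2% of all windows, and did not match the TWSG1 window. These are matches of letters in a short window and carry no information on binding in these cells.

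The rest of the pathway was read from lists of 93 measured genes in 9 groups, each tested by limma with Benjamini-Hochberg adjustment across the 18417 genes. None of the 93 passed an adjusted p of 0.05, where 0.109% of all genes did. At an unadjusted p under 0.05 from limma, 2 were higher and 11 lower with p53si-1, 13 of 93. Over all 18417 genes, 1004 were higher and 1253 lower at that value, 12.3% in all. By over 1.5-fold 3 genes were lower and none was higher, against 0.923% of all genes in either direction (0.652% lower and 0.271% higher). The arrays of the groups did not overlap for 40 of the 93 genes, near the 42.5% of all genes. The lists were chosen with earlier results of these data known. The counts and p-values of their genes are therefore a description, and no excess over all genes is read from them.

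The 3 genes lower by over 1.5-fold were CRIM1, FSTL1 and INHBA. CRIM1, a transmembrane protein with chordin-like cysteine-rich repeats that binds BMPs, had log2 signals of 9.53 and 9.61 with NS and 8.61 and 8.77 with p53si-1. Both p53si-1 arrays lay below both NS arrays, and the difference of -0.88 (standard error 0.09, adjusted p = 0.051 from limma) was about the size of that of TWSG1. CRIM1 lay just outside the threshold, and its adjusted p from limma ran from 0.014 to 0.22 over the alternatives, for example 0.032 after median centring. FSTL1, a secreted follistatin-related glycoprotein, was at 9.97 and 9.79 with NS and 9.50 and 9.08 with p53si-1. The groups did not overlap, the difference was -0.59 (standard error 0.15, adjusted p = 0.21 from limma), and the 2 p53si-1 arrays were 0.42 apart. Without p53si-1 replicate 2 the FSTL1 difference was -0.38, and without p53si-1 replicate 1 it was -0.80.

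INHBA encodes the subunit of activin A, the ligand that follistatin neutralizes. Its log2 signals were 8.06 and 7.98 with NS and 7.55 and 7.32 with p53si-1, a difference of -0.59 (standard error 0.11, adjusted p = 0.11 from limma). FSTL1 and INHBA were barely past 1.5-fold, by under 0.01 on the log2 scale. The list named other secreted BMP antagonists, 11 measured with FSTL1 and the transmembrane CRIM1 among them, had a median difference of -0.05. CER1, a cystine-knot antagonist known from the early embryo, was at 3.78 and 4.03 with NS and 4.28 and 4.42 with p53si-1, a dim signal with a difference of 0.45 (adjusted p = 0.21 from limma).

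Of the 93 pathway genes, 58 had a lower mean (62.4%), where 52.6% of all 18417 genes did. The counts of lower means, here and for the lists below, were not tested against that share. Among 19 BMP and activin ligands, 12 had a lower and 7 a higher mean, with a median of -0.06. After INHBA, BMP2 differed the most at -0.45 (standard error 0.13, adjusted p = 0.27 from limma). The 12 receptors and co-receptors stayed between -0.23 and 0.13, the most for the co-receptor ENG (-0.23, or -0.10 without p53si-1 replicate 2 and -0.35 without p53si-1 replicate 1) and the type II receptor BMPR2 (-0.16). Of 7 genes listed under chordin and noggin processing, TLL1, a tolloid-like chordin protease, was at 0.31 (0.19 without NS replicate 1 and 0.20 without p53si-1 replicate 2) and the proprotein convertase PCSK5 at -0.15. TLL1 was dim, with means of 3.67 with NS and 3.99 with p53si-1. Among 11 SMADs and their inhibitors, the largest differences were those of SMURF2, a ubiquitin ligase of the pathway, at -0.34 (standard error 0.09, adjusted p = 0.21 from limma) and SMAD4 at -0.15 (-0.22 without NS replicate 1 and -0.07 without NS replicate 2). The SMAD4 signal was dim, with means of 3.70 with NS and 3.55 with p53si-1, below the lower quartile of all genes, 4.72. Whether SMAD4 is expressed in these cells was not tested.

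Of 11 BMP target genes, 7 had a lower and 4 a higher mean. ID4 was at 9.10 and 8.43 with NS and 8.33 and 8.19 with p53si-1, and ID1 at 7.35 and 6.98 with NS and 7.82 and 7.25 with p53si-1. The ID4 arrays did not overlap and those of ID1 did. Their differences were -0.50 and 0.37, each with a standard error of 0.21, and the adjusted p from limma was 0.41 and 0.54. The NS arrays were 0.67 apart for ID4, and the p53si-1 arrays 0.57 apart for ID1. Leaving out NS replicate 1 or NS replicate 2 put ID4 at -0.17 or -0.84, and leaving out p53si-1 replicate 1 or p53si-1 replicate 2 put ID1 at 0.09 or 0.66 (0.19 without NS replicate 2). The median over the 11 targets was -0.05.

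SOSTDC1 also acts on WNT signaling, and the WNT lists were read for the same contrast. The LRP receptors that SOST and SOSTDC1 bind all had a lower mean, with LRP5 at -0.20, LRP6 at -0.16 (0.030 without NS replicate 2) and LRP4 at -0.14. None passed (lowest adjusted p = 0.40 from limma). Of 8 measured WNT target genes, 6 had a lower mean, with APCDD1 at -0.35 (standard error 0.10, adjusted p = 0.23 from limma) and SP5 at -0.34 (-0.12 without p53si-1 replicate 2 and -0.56 without p53si-1 replicate 1). AXIN2, a widely used WNT reporter gene, was at 0.21. The 11 other secreted WNT antagonists lay between -0.18, for DKK1, and 0.10, with SFRP5 at -0.17. Without 1 array DKK1 ran from -0.29, without p53si-1 replicate 2, to -0.07, without p53si-1 replicate 1 (-0.11 without NS replicate 1). Of these 11 antagonists, 7 lay below the lower quartile of all genes, 4.72. DKK1 was among them, with means of 4.16 with NS and 3.98 with p53si-1. The RT-PCR and immunoblot controls were at -0.09 for GAPDH, 0.05 for B2M and -0.07 for ACTB, and both p53si-1 arrays lay below both NS arrays for GAPDH and ACTB. For GAPDH the closest pair of arrays differed by only -0.0008. Most of its difference came from p53si-1 replicate 2, at 13.53 against 13.69 on p53si-1 replicate 1.

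**Figure D3:**
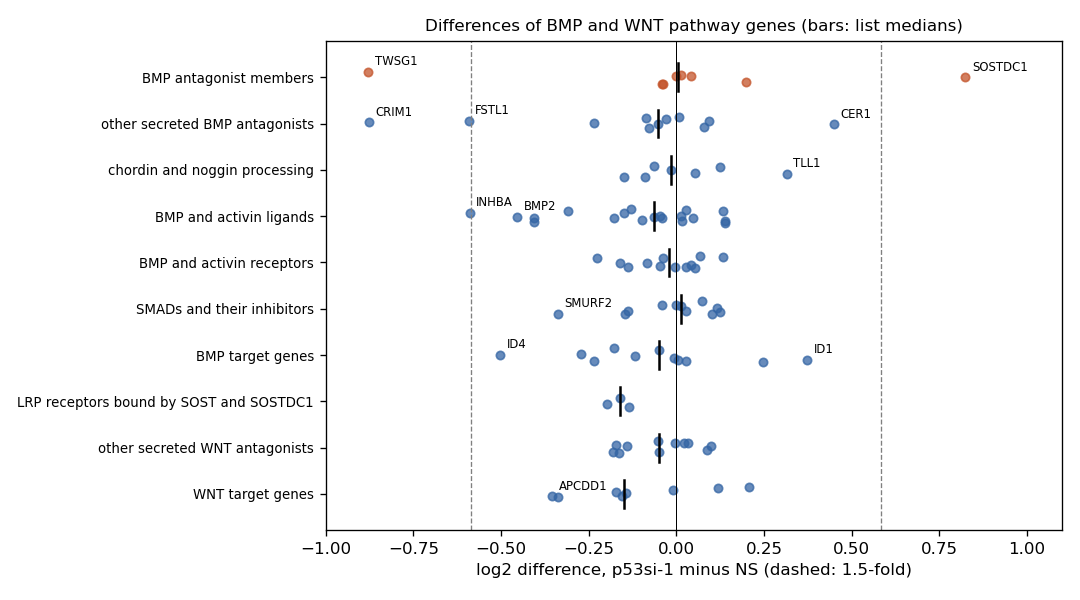
Log2 difference of group means, p53si-1 minus NS (x axis), of each measured gene in the BMP antagonist list and in 9 lists of other BMP and WNT pathway genes. Black bars give the median of each list, from -0.16 for the 3 LRP receptors to 0.01 for the SMADs, and dashed lines mark 1.5-fold, passed by SOSTDC1, TWSG1, CRIM1, FSTL1 and INHBA.

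The genes whose signals on the 4 arrays ran closest to those of SOSTDC1 and TWSG1 were found by the root mean square distance between the array values, each gene centred on its own mean. For SOSTDC1 these were IL1R1, the signaling receptor of interleukin-1 (distance 0.05), ATP6V0D2, a subunit of the vacuolar proton pump (0.06), and CA8, a carbonic anhydrase-related protein (0.07). Their differences between the groups were 0.73, 0.82 and 0.76. For TWSG1 they were FERMT2, the focal adhesion protein kindlin-2 (0.02), ZDHHC16, a palmitoyltransferase (0.03), and SLC44A1, a choline transporter (0.03). Their differences were -0.90, -0.85 and -0.94. As with SOSTDC1, its 3 nearest genes were all lower on NS replicate 2 than on replicate 1. The difference was -0.27 for IL1R1, -0.43 for ATP6V0D2 and -0.36 for CA8. The likeness rests on 4 arrays and on a shared difference between the groups. The distance also counts the replicate differences, so the shared direction on the NS replicates follows from how these genes were selected.

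**Figure D4:**
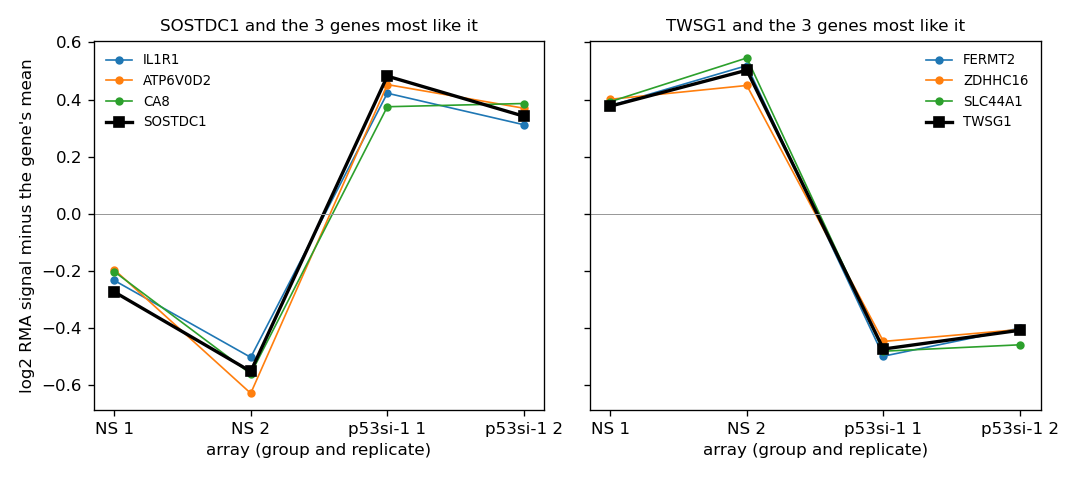
Log2 RMA signal minus the gene's own mean (y axis) on the 4 arrays (x axis, group and replicate number) for SOSTDC1 and TWSG1 in black and the 3 genes nearest to each. Lines join the arrays of a gene to show its profile and replicates have no order. The nearest genes stay within a root mean square distance of 0.07 and 0.03.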

How the data were processed

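The arrays (Affymetrix Human Gene 1.0 ST) measured gene expression in 2 NS and 2 p53si-1 samples. Probes were summarized by the authors into transcript clusters with RMA, and GCOS and Affymetrix Expression Console are also named in the submitters' processing notes. The deposited values were taken as log2 signals because they run from 1.75 to 14.3 with nearly equal quartiles, and RMA makes the arrays alike, so a shift shared by most transcripts would be removed. RMA settings and annotation version: not given in the sources used here. Of 33297 clusters, 19460 name 1 gene in the platform annotation, and the cluster with the highest mean was kept for each of 18417 genes. The lmFit and eBayes functions of limma 3.58.1 (R 4.3.3) were run on all genes, with Benjamini-Hochberg adjustment, and checked on simulated data. Standard errors and 95% intervals come from this fit. The members and lists were chosen with earlier results of these data known. Genes named are all members, the genes past a threshold and the 2 largest differences per pathway list, the 3 nearest genes to SOSTDC1 and TWSG1, and GAPDH, B2M and ACTB, and AXIN2, CER1, LRP4 and the cell type markers named were added after their values were seen. A planned comparison of protein sequences was not run here. The legend of a supplementary figure describes the experiments as independent, nothing else says what a replicate shares, and p-values measure the spread between these arrays. The number of arrays limits the precision, and the smallest two-sided p from permuting 4 arrays is 0.333. The alternatives averaged clusters, renormalized or centred the arrays, left out dim genes or 1 array, changed the prior variance or the fold criterion, or used the replicate number as a block.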

Additional observations from a re-analysis of the deposited data

How the results depend on the processing

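The SOSTDC1 difference stayed between 0.68 and 0.96 and the TWSG1 difference between -0.94 and -0.82 over the 9 alternatives that gave a value, and both extremes of each came from leaving out 1 array. Averaging clusters, leaving out dim genes and the replicate block returned the main values of 0.82 and -0.88. They could not have moved these values or the 1.5-fold counts of members given below, so they are no check on them. FST kept its sign in all 8 alternatives that gave a value (0.15 to 0.24), and SOST, NOG, CHRD, GREM1 and BAMBI, with differences near 0, each changed sign in at least 1. For these genes too, averaging clusters and the replicate block could not move the difference. At a 2-fold criterion 0 members were higher and 0 were lower, and no alternative at 1.5-fold moved these counts from 1 and 1. The pathway genes at an adjusted p under 0.05 went from 0 to 1 (CRIM1) when clusters were averaged, after quantile normalization, after median centring and with a trended prior variance, and to 2 (CRIM1 and INHBA) without dim genes, where fewer genes were tested. Their count over 1.5-fold was 7 lower and 1 higher at 1.3-fold, 0 lower at 2-fold and 1 lower after median centring, and without 1 array it ran from 2 to 4 lower and from 0 to 1 higher. After median centring CRIM1 alone was past it, and FSTL1 and INHBA were not. The cause of the other moves was not tested. Without 1 array LRP6 ran from -0.35 to 0.030 (the last without NS replicate 2, the first without NS replicate 1, and -0.07 without p53si-1 replicate 1), and PCSK5 from -0.31 to 0.013 and SFRP5 from -0.43 to 0.082 (the first of each without p53si-1 replicate 1 and the last without p53si-1 replicate 2), and none of these passed. Without NS replicate 1 or NS replicate 2, PCSK5 was at -0.27 or -0.03 and SFRP5 at -0.05 or -0.30. Same-numbered arrays deviated together across genes (correlation 0.24), but no source says that a number marks a shared culture or day. With the replicate number as a block, 0 pathway genes passed and the calls over all genes went from 20 to 12. Genes below the median signal, among them 5 members, gave no value without dim genes.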
